A study of Mus musculus with 2 samples.

Results

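The genes described are the 8 basement membrane collagens of the mouse: the 6 chains of collagen IV (Col4a1 to Col4a6), Col15a1, the chain of collagen XV, and Col18a1, the chain of collagen XVIII. They were chosen by symbol and make up 8 of the 53698 gene entries of each expression matrix. Their levels were read in endothelial, mural, tubule and fibroblast cells, set apart by UMIs of marker genes (a UMI, or unique molecular identifier, marks 1 captured transcript). None of the 8 is a marker.

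Both libraries hold kidney cells of FVBN mice sorted for PDGFR alpha and PDGFR beta, surface receptors of mesenchymal cells, and profiled by 10x Chromium version 2 sequencing of transcript 3' ends. The first is labelled UUO (unilateral ureteral obstruction, a model of kidney fibrosis) at 10 days, and the other is labelled sham. There was 1 library per label, with no transgene, agent, age or number of animals named, so no test between them was made, and every interval given is a 95% interval for counting error alone. After filtering, 1052 cells labelled UUO (median 4154 UMIs) and 10656 cells labelled sham (median 7824 UMIs) remained, and 16 barcodes occurred in both libraries. In the fibroblast class, Spp1 stood at 184 CPM (UMIs of the gene per 1e06 summed UMIs) in the library labelled UUO, against 12850 CPM in the library labelled sham, and Timp1 at 68.5 CPM against 709.9 CPM. Both genes are known to be induced in injured kidney, so these values go against the labels, whereas the matrix gene Postn was 1.93-fold higher in the library labelled UUO. The libraries are therefore named by label throughout, and no direction below is given as an effect of obstruction.

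A basement membrane is a thin sheet of laminin and collagen IV networks, joined by nidogens and perlecan, that underlies epithelia and endothelia and wraps pericytes. Collagen IV chains assemble as trimers: the Col4a1 and Col4a2 chains form the network found in nearly every basement membrane, the Col4a3, Col4a4 and Col4a5 chains form that of the mature glomerular membrane and of part of the tubules, and the Col4a5 and Col4a6 chains occur together in the membranes of Bowman's capsule and collecting ducts. Loss of the Col4a3, Col4a4 or Col4a5 chain causes Alport syndrome in people. Collagens XV and XVIII carry many interruptions and glycosaminoglycan chains, and the carboxyl end of collagen XVIII can be released as endostatin.

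The 6 collagen IV genes lie in 3 head-to-head pairs (GENCODE M21, GRCm38). Col4a1 (chr8:11198423-11312826, minus strand) and Col4a2 (chr8:11312805-11449287, plus strand) overlap by 22 bases at their starts. Col4a4 (chr1:82448423-82586849, minus) and Col4a3 (chr1:82586921-82722059, plus) have 71 bases between their starts. Col4a6 (chrX:141165403-141474076, minus) and Col4a5 (chrX:141475385-141689234, plus) have 1308 bases between theirs. Col15a1 (chr4:47208161-47313167, plus) and Col18a1 (chr10:77052178-77166548, minus) lie apart. Exons of 5 of the 8 overlap another gene on the opposite strand: Gm15418 and Col4a2 for Col4a1, Col4a1 and Gm15419 for Col4a2, C430014B12Rik for Col4a3, Gm12426 for Col15a1 and Slc19a1 for Col18a1. Whether the authors' counting used strand is not stated in the labels or the processing notes, so reads of such partners may not be told apart. The windows of 250 bases before to 50 bases after the start in RefSeq's table (GRCm38.p6) matched 7 of the 8 genes (not Col4a3), with 8 windows.

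Of these 8 windows, 5 held the GC box GGGCGG on either strand, 4 held CCAAT and 0 held TATAAA. Among all 32851 windows the shares were 35.7%, 37.4% and 13.6%. The windows of Col4a1 and Col4a2 overlap, so the 8 are not separate stretches. The motifs do not overlap one another in letters, and a match is a description only. Shown are the stretch between Col4a4 and Col4a3, which were both at their highest in tubule cells, and the upstream stretches of Col15a1 and Col18a1, whose levels ran in opposite directions within the fibroblast class; capitals mark GC box and CCAAT matches on either strand, and exonic bases are left out.
Col4a4 to Col4a3 gap, chr1:82586850-82586920, minus strand: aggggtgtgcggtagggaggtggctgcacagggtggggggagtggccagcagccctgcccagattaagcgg
Col15a1 upstream, chr4:47207762-47208011, plus strand: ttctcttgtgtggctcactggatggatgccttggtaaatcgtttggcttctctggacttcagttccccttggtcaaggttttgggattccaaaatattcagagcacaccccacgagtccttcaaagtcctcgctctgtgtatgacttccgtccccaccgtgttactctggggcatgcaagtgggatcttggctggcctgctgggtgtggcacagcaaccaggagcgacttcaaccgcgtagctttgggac
Col18a1 upstream, chr10:77166549-77166780, minus strand: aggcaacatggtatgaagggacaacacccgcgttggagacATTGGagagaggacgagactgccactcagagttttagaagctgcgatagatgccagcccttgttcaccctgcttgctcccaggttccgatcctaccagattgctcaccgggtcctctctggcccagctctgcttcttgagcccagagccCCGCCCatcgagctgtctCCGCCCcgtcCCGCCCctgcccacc
The Col4a4 to Col4a3 gap held none of the 3 motifs and was 69% G and C. The Col15a1 stretch also held none, and the Col18a1 stretch held 3 GC boxes and 1 CCAAT match. A second Col18a1 window, chr10:77113656-77113955, is not shown and held none of the 3 motifs.

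The cell classes carried their own markers. The endothelial class held 76 cells labelled UUO and 441 labelled sham, the mural class 26 and 48, the tubule class 88 and 217, and the fibroblast class 646 and 9128. Endothelial cells held all 10 endothelial markers, led by Plvap at 2796 CPM in the library labelled UUO and 3054 CPM in the library labelled sham. Mural cells were led by the renin gene Ren1, at 11730 and 16680 CPM in the same order, summed over the class; Ren1 is the transcript that marks juxtaglomerular renin cells. The tubule class was not the same population in both libraries: 80 of 88 cells labelled UUO were proximal by their markers, against 28 of 217 labelled sham, where 189 were of the loop, distal tubule and collecting duct. Cells outside these classes were 193 labelled UUO and 437 labelled sham without a class, and, among leukocytes, 2 and 306 macrophages. A further 16 and 38 met more than 1 class other than the fibroblast class. Cells that met the fibroblast class and 1 other class were kept in that other class. In the mural class, median fibroblast marker UMIs per 10000 were 26.2 labelled UUO and 30.7 labelled sham, against 30 needed for fibroblasts. In the endothelial class they were 22.2 and 19.5, and in the tubule class 21.3 and 11.2. Podocytes, which make the glomerular collagen IV, were nearly absent: 4 cells labelled UUO and 1 labelled sham held at least 4 of their 6 markers.

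Fibroblast marker RNA was counted in every class. The 8 fibroblast markers summed, in the endothelial, mural and tubule classes, to 13.1%, 17.8% and 11.5% of their fibroblast class level in the library labelled UUO, and to 28.3%, 59.8% and 12.2% in the library labelled sham. Macrophages labelled sham, which are not known as makers of these collagens, held 37.2% of the fibroblast marker level, with Col4a1 at 237 CPM, Col15a1 at 241 CPM and Col18a1 at 252 CPM. For each class the level that an equal share of the fibroblast profile would carry is therefore given for the 4 most counted collagens. It assumes that all marker RNA outside fibroblasts came from fibroblasts, which was not tested, since no profile of empty droplets was used and a class may make some of it. In macrophages labelled sham the level so computed was 179, 202 and 176 CPM for Col4a1, Col15a1 and Col18a1. Each was below the level counted there, and the source of the rest was not tested. Ratios of a class over fibroblasts were rerun with this profile subtracted and, where enough cells remained, without cells rich in fibroblast markers. Beyond these reruns, the part of fibroblast RNA in the results was not tested.

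Col4a1, the major collagen IV chain, was found at high levels in endothelial, mural and fibroblast cells and at lower levels in tubule cells. It stood at 284, 299, 132 and 349.9 CPM in the endothelial, mural, tubule and fibroblast classes labelled UUO, against 589, 528, 152 and 481 CPM in those labelled sham. Its partner Col4a2 stood at 173, 213, 91.99 and 213 CPM in the same classes labelled UUO, against 577, 562.5, 134 and 537 CPM in those labelled sham. Both chains were lower in the library labelled UUO in all 4 classes, although for Col4a1 in the tubule class the log2 ratio of -0.20 turned sign under 3 of 16 alternatives (range -0.83 to 0.14), and the counting intervals of the libraries were apart in the endothelial, mural and fibroblast classes of both genes and overlapped in the tubule class. Within each library the Col4a1 intervals of endothelial and mural cells overlapped, as did those of mural cells and fibroblasts. The endothelial and fibroblast intervals overlapped labelled UUO (234 to 343 CPM and 332 to 368 CPM) and were apart labelled sham (558 to 621 CPM and 477 to 486 CPM). The endothelial level of Col4a1 was far above the level that an equal share of the fibroblast profile would carry, 45.98 CPM labelled UUO and 136 CPM labelled sham. For Col4a2 these levels were 27.97 CPM labelled UUO and 152 CPM labelled sham. In the mural class labelled sham they were 288 CPM of 528 for Col4a1 and 321 CPM of 562.5 for Col4a2.

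Col15a1, the collagen XV chain, was highest in fibroblasts of both libraries. It stood at 72.3, 55.1, 33.02 and 192 CPM in endothelial, mural, tubule and fibroblast cells labelled UUO, against 223, 192, 91.6 and 545 CPM in those labelled sham. An equal share of the fibroblast profile would carry 25.3, 34.3 and 22.1 CPM in the first 3 classes labelled UUO, and 154, 326 and 66.4 CPM in those labelled sham. The mural level labelled sham was below the level so computed, so a fibroblast share of 59.8%, read from the markers, is too large for Col15a1 in that class.

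Col18a1, the source of endostatin, was highest in mural cells. It stood at 56.9, 315, 101 and 174 CPM in endothelial, mural, tubule and fibroblast cells labelled UUO, against 203, 624, 179.9 and 474 CPM in those labelled sham. The mural and fibroblast intervals did not overlap in either library: 225 to 429 CPM against 161 to 187 CPM labelled UUO, and 537 to 722 CPM against 469 to 479 CPM labelled sham. An equal share of the fibroblast profile would carry 22.8, 31 and 19.97 CPM of Col18a1 in endothelial, mural and tubule cells labelled UUO, and 134, 284 and 57.9 CPM in those labelled sham. That is well under the observed mural level labelled UUO, but a large share of the mural and endothelial levels labelled sham.

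Col4a3 and Col4a4, chains of the glomerular and distal tubule network, were highest in tubule cells. Col4a3 stood at 5.17, 0, 61.3 and 12.9 CPM in endothelial, mural, tubule and fibroblast cells labelled UUO, against 6.09, 6.86, 50.9 and 14.8 CPM in those labelled sham. Col4a4 stood at 7.75, 15.8, 61.3 and 21.8 CPM in the same classes labelled UUO, against 6.53, 0, 66.4 and 17.8 CPM in those labelled sham. The tubule interval of Col4a4 labelled UUO (40.1 to 89.9 CPM) overlapped the mural one (1.91 to 56.9 CPM). Endothelial and mural values rested on 0 to 3 UMIs labelled UUO and 0 to 15 UMIs labelled sham. A count of 0 is taken to allow up to 3 counts, which is 23.6 CPM in the 26 mural cells labelled UUO and 10.3 CPM in the 48 labelled sham; the exact Poisson intervals, drawn as bars in the plot of levels, reach 29.1 and 12.7 CPM.

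Col4a5 and Col4a6, the X-linked chains, were the least often counted. Col4a5 stood at 7.75, 0, 9.44 and 11.98 CPM in endothelial, mural, tubule and fibroblast cells labelled UUO, against 1.74, 17.1, 15.6 and 2.06 CPM in those labelled sham. Col4a6 gave 1, 0, 0 and 29 UMIs in those classes labelled UUO, against 2, 0, 10 and 14 UMIs in those labelled sham. The measured Col4a6 level was below 10 CPM in every class of both libraries. With 0 UMIs in mural cells, the exact Poisson intervals there reach 29.06 CPM labelled UUO and 12.65 CPM labelled sham. A mural level above 10 CPM is therefore not excluded.

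**Figure D1:**
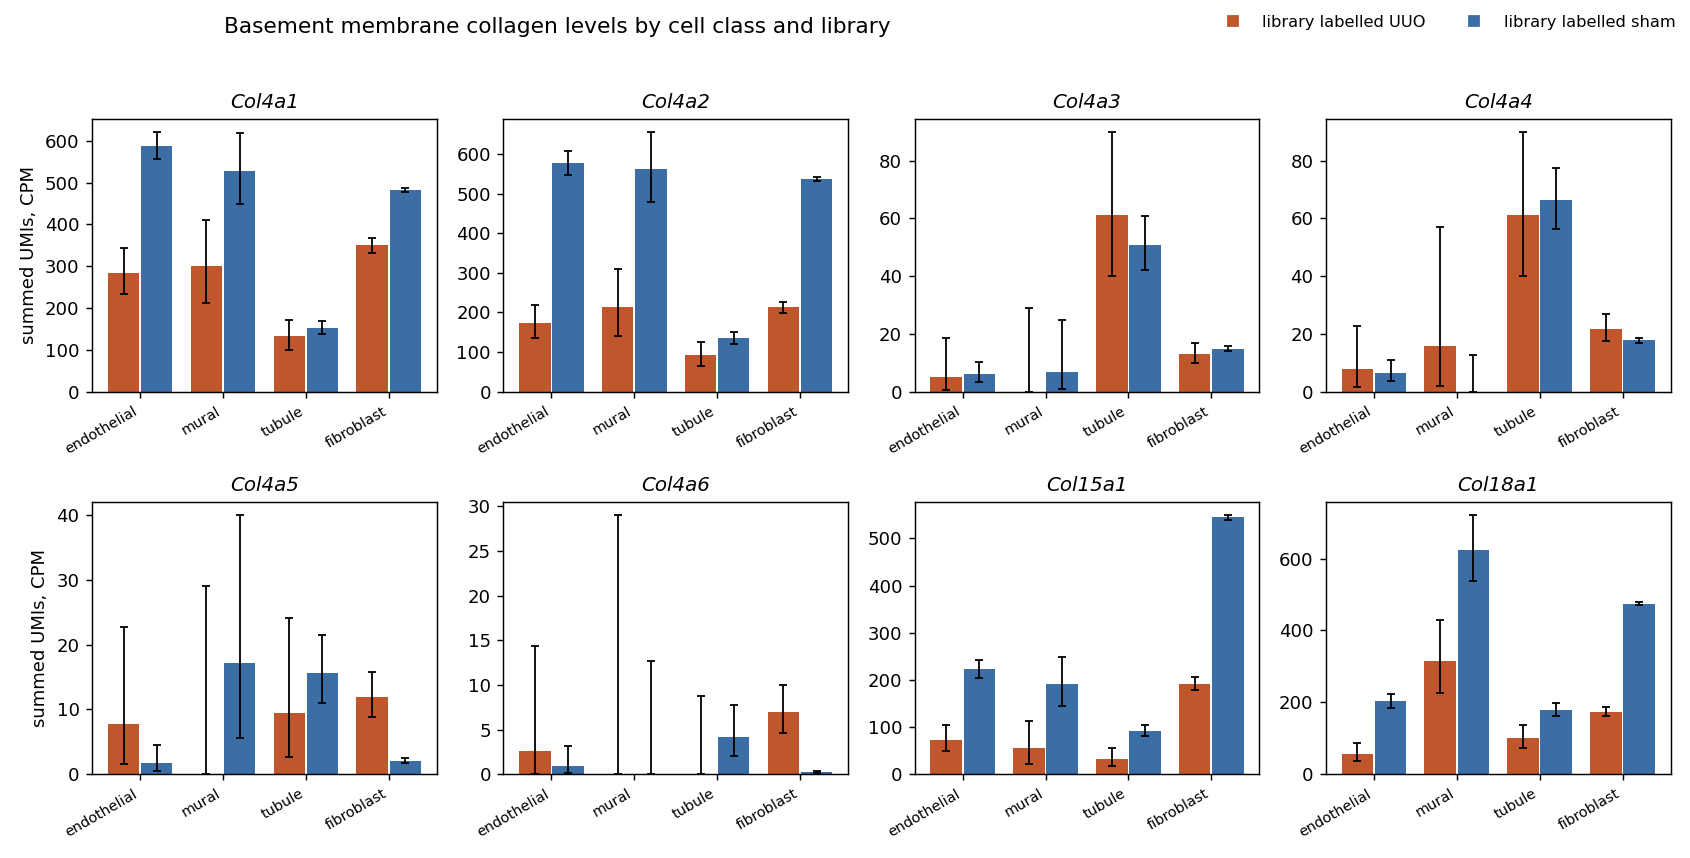
Summed UMIs of a gene scaled to CPM ( linear axes from 0, with a scale of its own in each panel) of the 8 collagens in the endothelial, mural, tubule and fibroblast classes of the library labelled UUO and the library labelled sham; bars are 1 library each and error bars are exact Poisson 95% intervals. Col4a3 and Col4a4 are highest in the tubule class of both libraries, Col15a1 in the fibroblast class and Col18a1 in the mural class.

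Within fibroblasts, the library labelled UUO held at least 2-fold less Col4a2, Col15a1 and Col18a1 than the library labelled sham, and more Col4a5. Levels were compared as log2 ratios after adding 5 CPM, for genes with at least 10 CPM in either group and at least 10 counts in the group with the higher CPM. Of the 7 collagens so compared, 3 were at least 2-fold lower, where 4.95% of 9652 genes were, and 1 was at least 2-fold higher, where 12.3% were. The median log2 ratio of the 7 was -0.45, and that of all genes compared was -0.01.

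Labelled UUO, Col4a2 was 2.52-fold lower (interval 2.36 to 2.7), Col15a1 2.83-fold lower (2.64 to 3.04) and Col18a1 2.73-fold lower (2.54 to 2.94). Col4a1 was 1.38-fold lower (1.31 to 1.45), short of 2-fold. Col4a3 and Col4a4 had ratios of 0.874 (0.652 to 1.15) and 1.23 (0.983 to 1.52), both with intervals that include 1. Col4a5 had 50 UMIs labelled UUO and 157 labelled sham, a ratio of 5.8 (4.13 to 8.02). Its log2 ratio of 1.27 became 0.99 with TMM scaling (edgeR's trimmed mean of M-values), just short of 2-fold. Col4a6 gave 29 UMIs in 26 of 646 cells labelled UUO, against 14 UMIs in 14 of 9128 cells labelled sham, a ratio of 37.7 (19.3 to 77.3) at levels of 6.95 and 0.184 CPM, below the minimum for comparison.

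Depth and the RNA of other cell types also differed between the fibroblast classes. Median depth was 5589.5 UMIs labelled UUO and 8329.5 labelled sham, the summed fibroblast markers were at 21560 and 12790 CPM, and the 9 proximal tubule markers, all of which were counted, at 892 and 21.9 CPM. The 5 erythroid markers, all counted as well, were at 353.8 and 17.6 CPM. Their part in these ratios was not tested.

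The share of cells with a UMI gave the same order at equal depth. After thinning each cell to 1000 UMIs, Col15a1 was found in 104 of 619 fibroblasts labelled UUO (16.8%, Clopper-Pearson interval 13.9 to 20) and 3615 of 8999 labelled sham (40.2%, 39.2 to 41.2), with 27 and 129 shallower cells left out. Unthinned, the shares were 50.3% and 88.3%. Col18a1 was found in 15.8% of thinned fibroblasts labelled UUO and 37.7% of those labelled sham, and in 45.4% and 85.1% unthinned. Macrophages labelled sham, at a median of 5549.5 UMIs before thinning, held a Col15a1 UMI in 17.1% and a Col18a1 UMI in 19.2% of thinned cells. The shares in fibroblasts labelled UUO were thus no higher than those in macrophages of the other library. Tubule cells of their own library, at a median of 2050.5 UMIs before thinning, held a Col15a1 UMI in 2.9% (0.353 to 10.1) and a Col18a1 UMI in 10.1% (4.18 to 19.8) of thinned cells.

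In the endothelial class, 4 of the 4 collagens compared had ratios of UUO over sham, as labelled, below 1 by at least 2-fold, where 8.67% of 8316 genes did. In the other direction there were 0 collagens and 8.62% of genes. Col4a1 had 110 UMIs in the 76 cells labelled UUO and 1353 in the 441 labelled sham, and its CPM was 2.07-fold lower (1.7 to 2.54). Col4a2 was 3.33-fold lower (2.61 to 4.32), Col15a1 3.08-fold (2.1 to 4.68) and Col18a1 3.57-fold (2.33 to 5.76). With equal weight for each cell the log2 ratio of Col18a1 was -0.57 in place of -1.75, and that of Col4a1 moved between -1.18 and -0.90 over the alternatives, so the calls of these 2 genes depend on such choices. Summed fibroblast markers were at 13.1% of the fibroblast class labelled UUO and 28.3% labelled sham, and their part in the lower Col15a1 and Col18a1 was not tested.

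The mural class pointed the same way with fewer cells. Of the 4 collagens compared, 2 were lower by at least 2-fold when labelled UUO, where 16.1% of 3984 genes were, and 0 were higher, where 12.2% were. The lower genes were Col4a2, with 27 UMIs labelled UUO and 164 labelled sham, at a ratio of 0.378 (0.242 to 0.571), and Col15a1, with 7 and 56 UMIs, at 0.287 (0.11 to 0.632). Col4a1 had a ratio of 0.567 (0.387 to 0.813) and Col18a1 one of 0.505 (0.349 to 0.714). Their log2 ratios of -0.81 and -0.97 fell short of 2-fold. Of 15 alternatives, Col4a1 passed it under 2 and Col18a1 under 6, so these calls depend on the settings.

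In the tubule class, which differs in segment between the libraries, 1 of 7 collagens compared was at least 2-fold lower labelled UUO, where 18.5% of 8738 genes were, and 0 were higher, where 12.6% were. The lower gene was Col15a1, with 14 and 218 UMIs and a ratio of 0.36 (0.194 to 0.618). Its log2 ratio was -1.35, and -0.25 with equal weight for each cell. Col4a3 and Col4a4 had ratios of 1.21 (0.757 to 1.85) and 0.924 (0.585 to 1.4). The segments and the labels cannot be told apart in this comparison.

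**Figure D2:**
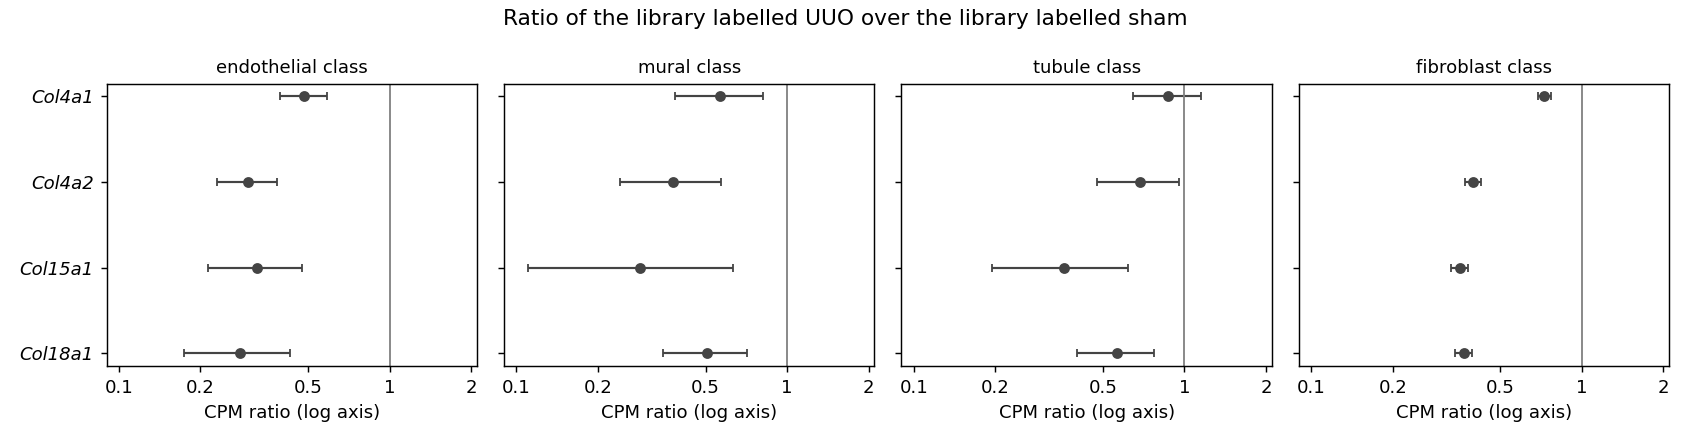
Ratio of CPM in the library labelled UUO over that in the library labelled sham (log axis) for Col4a1, Col4a2, Col15a1 and Col18a1, one panel per cell class; points are ratios of summed UMIs and bars are exact 95% counting intervals. The ratios lie below 1 in each panel, and the interval reaches 1 only for Col4a1 in the tubule class (0.643 to 1.15).

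Col4a2 made up a smaller share of the UMIs of the Col4a1 and Col4a2 pair in the library labelled UUO in each class. The share was 37.9%, 41.5%, 41.1% and 37.8% in endothelial, mural, tubule and fibroblast cells labelled UUO, against 49.5%, 51.6%, 46.9% and 52.7% in those labelled sham. The intervals were apart in the endothelial class (30.7 to 45.4% against 47.6 to 51.4%) and the fibroblast class (35.9 to 39.8% against 52.4 to 53.1%). They overlapped in the mural class (29.4 to 54.4% against 45.9 to 57.2%) and the tubule class (31.1 to 51.6% against 43.1 to 50.7%). Macrophages labelled sham stood at 54.5% (51.3 to 57.8), and cells without a class at 40.2% labelled UUO (33.1 to 47.7) and 50.6% labelled sham (46.9 to 54.4). Within the library labelled sham the endothelial and tubule intervals lay below that of the fibroblasts, and the mural interval overlapped it. Counting efficiency at the 3' end may differ between the genes, so the share is read only between classes and libraries and not as a protein ratio. For the second pair, Col4a4 made up 62.8% of Col4a3 plus Col4a4 UMIs in fibroblasts labelled UUO (54.3 to 70.6) and 54.5% in those labelled sham (52.5 to 56.5), with intervals that overlap. For the third pair, Col4a6 made up 36.7% of Col4a5 plus Col4a6 UMIs in fibroblasts labelled UUO (26.1 to 48.3) and 8.19% in those labelled sham (4.55 to 13.4), with intervals apart.

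**Figure D3:**
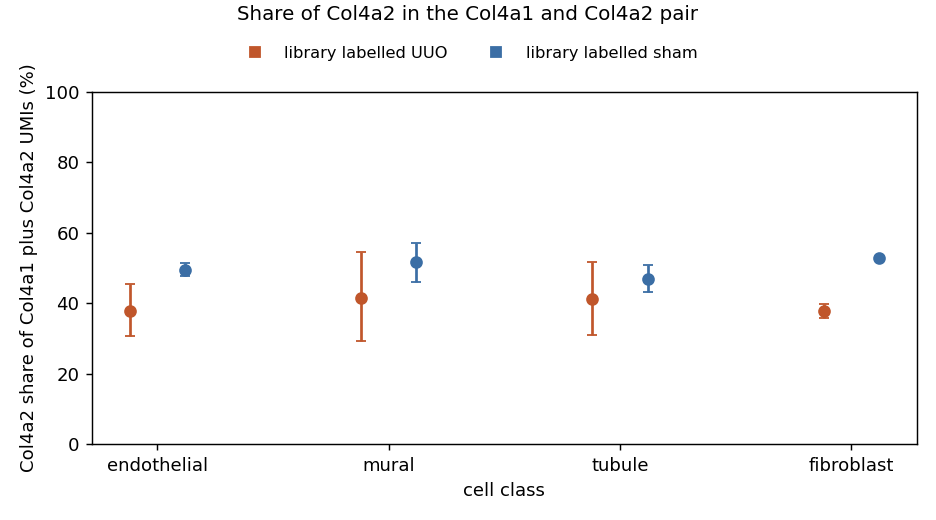
Share of Col4a2 in the summed UMIs of Col4a1 and Col4a2 (percent, axis from 0 to 100) in 4 cell classes of the library labelled UUO and the library labelled sham; points are 1 library each and bars are Clopper-Pearson 95% intervals. Points labelled UUO lie at 37.8% to 41.5%, and points labelled sham at 46.9% to 52.7%.

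Across cell classes within a library, tubule cells had the most collagens past 2-fold against fibroblasts, with more of the Col4a3 and Col4a4 chains and less of Col4a1, Col4a2 and Col15a1 in both libraries, and with more Col4a5 and less Col18a1 past 2-fold among those labelled sham. In the library labelled UUO, 2 of 7 collagens compared were at least 2-fold higher in tubule cells, where 14.4% of 8992 genes were, and 3 were lower, where 24.4% were. In the library labelled sham, 3 of 7 were higher, where 12.6% of 9820 genes were, and 4 were lower, where 12.5% were. Col4a3 had 26 UMIs in tubule cells and 54 in fibroblasts labelled UUO, a CPM ratio of 4.74 (2.85 to 7.7). Labelled sham, it had 121 and 1126 UMIs, a ratio of 3.43 (2.82 to 4.14). The ratios of Col4a4 were 2.81 (1.74 to 4.39) labelled UUO and 3.74 (3.15 to 4.42) labelled sham. With equal weight for each cell the log2 ratio of Col4a4 labelled UUO was 0.78 in place of 1.31, short of 2-fold.

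The tubule counts of Col4a3 and Col4a4 came from different segments. In the library labelled sham, cells of the loop, distal tubule and collecting duct held all 121 Col4a3 UMIs (56.9 CPM) and 153 of 158 Col4a4 UMIs (71.98 CPM), while 28 proximal cells held 0 and 5, and 0 UMIs there allow up to 11.8 CPM by the limit of 3 counts. Labelled UUO, 80 proximal cells held 26 Col4a3 UMIs in 12 cells (64.7 CPM) and 25 Col4a4 UMIs in 13 cells (62.3 CPM). Podocyte markers did not stand out in these cells: the 6 summed to 35.4 CPM in tubule cells, against 93 CPM (4 of 6 and 6 of 6 counted) in fibroblasts labelled UUO, and to 23.1 against 105 CPM (5 of 6 and 6 of 6 counted) in the library labelled sham.

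Col4a5 was higher in tubule cells than in fibroblasts in the library labelled sham, with 37 UMIs and 157 UMIs and a ratio of 7.53 (5.11 to 10.8). Labelled UUO, 4 and 50 UMIs gave a ratio of 0.787 (0.206 to 2.14). Col4a6 had 10 UMIs in tubule cells labelled sham, 10 of them in the loop, distal tubule and collecting duct, and 0 in the 88 tubule cells labelled UUO, which allows up to 7.08 CPM by the same limit.

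Col4a1 and Col4a2 were lower in tubule cells than in fibroblasts in both libraries, at ratios of 0.377 (0.284 to 0.493) and 0.432 (0.305 to 0.596) labelled UUO and 0.316 (0.284 to 0.35) and 0.251 (0.224 to 0.28) labelled sham. Labelled UUO, both fell short of 2-fold with median of ratios scaling, at log2 ratios of -0.97 for Col4a1 and -0.77 for Col4a2, and with the marker UMIs needed for a class lowered 2-fold, at -0.93 and -0.76, in place of -1.37 and -1.17. Col15a1 was lower still, at 0.172 (0.0935 to 0.29) labelled UUO and 0.168 (0.147 to 0.192) labelled sham. Col18a1 had ratios of 0.584 (0.419 to 0.794) and 0.379 (0.344 to 0.417) in the same order.

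Endothelial cells held less of collagens XV and XVIII than fibroblasts, and differed less from them in the main collagen IV chains. In the library labelled UUO, 3 of 7 collagens compared were at least 2-fold lower in endothelial cells, where 13% of 8403 genes were, and 0 were higher, where 10.4% were. Among those labelled sham, 2 of 6 were lower, where 6.87% of 9478 genes were, and 0 were higher, where 9.36% were. Col15a1 had ratios of 0.376 (0.249 to 0.548) labelled UUO and 0.409 (0.374 to 0.446) labelled sham. Col18a1 had ratios of 0.327 (0.204 to 0.499) and 0.428 (0.39 to 0.469), and with equal weight for each cell its log2 ratio labelled UUO was -0.81 in place of -1.53. With the marker UMIs needed for a class lowered 2-fold, both calls labelled sham ended, at log2 ratios of -0.87 for Col15a1 and -0.82 for Col18a1, in place of -1.27 and -1.20. Col4a4 was the other lower gene labelled UUO, on 3 endothelial UMIs, with an interval that includes 1 (0.355, 0.072 to 1.07). Labelled sham, Col4a4 had 15 endothelial UMIs and a ratio of 0.368 (0.205 to 0.609), and Col4a3 had 14 and a ratio of 0.411 (0.224 to 0.693), both with intervals below 1. Their log2 ratios of -0.98 and -0.84 fell short of 2-fold, and that of Col4a4 passed it under 10 of 18 alternatives. Col4a1 had a ratio of 0.812 (0.663 to 0.986) labelled UUO and 1.22 (1.16 to 1.29) labelled sham, on either side of 1.

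Mural cells held more Col18a1 and less Col15a1 than fibroblasts in both libraries. For Col4a1 their ratio was 0.856 (0.603 to 1.18) labelled UUO and 1.1 (0.93 to 1.29) labelled sham, and for Col4a2 0.999 (0.655 to 1.46) and 1.05 (0.894 to 1.22), all with intervals that include 1. The Col18a1 ratio was 1.81 (1.28 to 2.49) labelled UUO and 1.32 (1.13 to 1.52) labelled sham, within 2-fold in both. With equal weight for each cell its log2 ratio labelled sham was 0.08 in place of 0.39. Col15a1 was the 1 collagen of 7 compared labelled UUO, and of 6 labelled sham, that was at least 2-fold lower, where 12.6% of 6260 and 7.54% of 7017 genes were; 0 were higher, where 6.74% and 3.79% were. Its ratios were 0.287 (0.115 to 0.594) and 0.353 (0.266 to 0.458). With the marker UMIs needed for a class lowered 2-fold both calls ended. The log2 ratios were then -0.63 labelled UUO and -0.95 labelled sham, in place of -1.71 and -1.48. Subtracting the fibroblast profile took away 325.8 CPM labelled sham, more than the 192.1 CPM observed. The log2 value of -6.78 so reached is set by the 5 CPM added and is not a measured fold. Col4a4 had 0 UMIs in mural cells labelled sham. It was at least 1.72-fold lower there than in fibroblasts taking 3 counts for 0, and at least 1.4-fold by the exact interval. Col4a5 had 5 UMIs in mural cells labelled sham, at 17.15 CPM against 2.065 CPM in fibroblasts, a ratio of 8.3 (2.66 to 19.8). It was not among the genes compared there, being under the minimum of 10 counts, which was set after seeing the data. Labelled UUO, Col4a3 and Col4a5 had 0 mural UMIs. There 3 counts are 23.6 CPM, above their fibroblast levels of 12.9 and 11.98 CPM, so neither could be called lower. Both are among the 7 collagens compared labelled UUO.

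**Figure D4:**
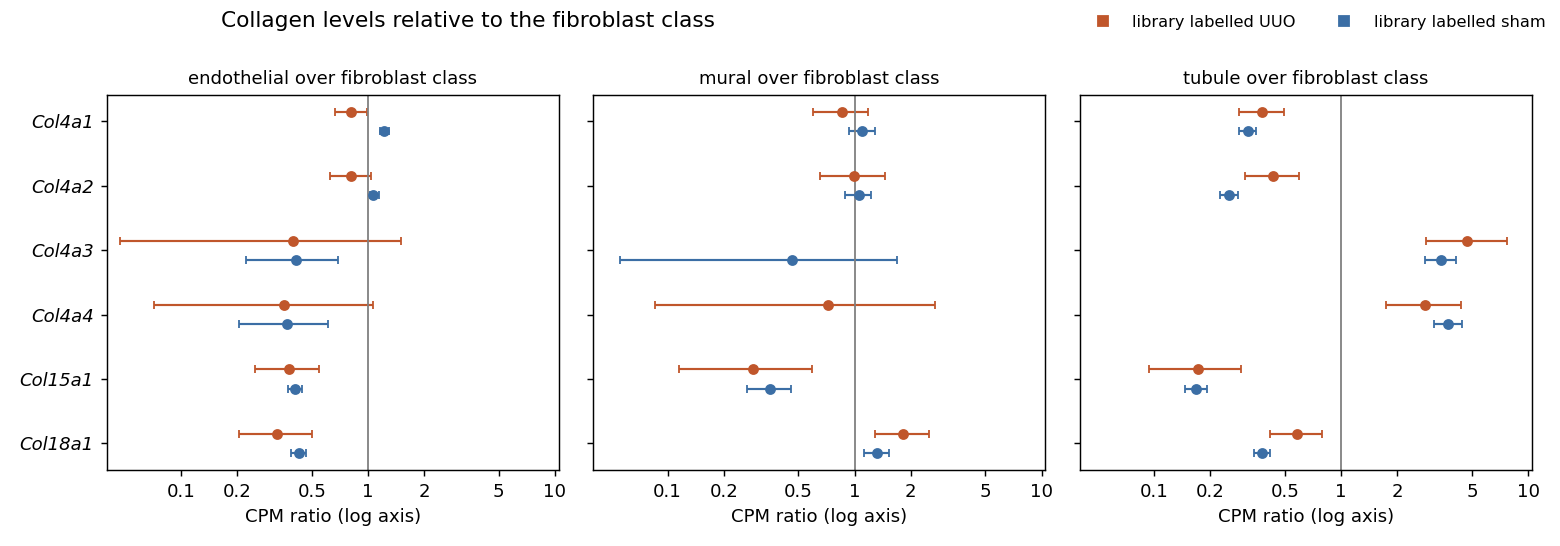
Ratio of CPM in endothelial, mural and tubule cells over fibroblasts (log axis) for 6 collagens in the library labelled UUO and the library labelled sham; points are ratios of summed UMIs, bars are exact 95% counting intervals, and genes with 0 UMIs in a class have no point. Col4a3 and Col4a4 lie above 1 in tubule cells of both libraries (2.81 to 4.74), Col15a1 below 1 in each panel, and Col18a1 above 1 in mural cells.

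The fibroblast class was not uniform in these genes. Its cells were ranked by how much of their UMIs the 8 fibroblast markers took and cut into tertiles (Pdgfra, Dcn, Lum, Col1a1, Col1a2, Col3a1, Mmp2 and Fstl1). The tertiles are ranges of a score, not cell types, and were chosen after the data had been seen. In the library labelled UUO, Col18a1 stood at 393, 144 and 49.8 CPM in the lower, middle and upper tertile, and Col4a2 at 377, 178 and 129 CPM. Col4a1 stood at 549, 267 and 280.5 CPM, and Col15a1 ran the other way, at 156, 148 and 251 CPM. Labelled sham, the same tertiles held Col18a1 at 525, 485 and 414 CPM, Col4a2 at 511, 530.5 and 568.5 CPM, Col4a1 at 465, 475 and 505 CPM and Col15a1 at 447, 563 and 620.1 CPM.

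The lower over the upper tertile labelled UUO gave a ratio of 7.89 (6.25 to 10.1) for Col18a1, on 451 and 85 UMIs, and of 2.91 (2.47 to 3.44) for Col4a2. These 2 of 7 collagens were at least 2-fold higher in the lower tertile, where 10.1% of 9853 genes were, and Col4a5, on 5 and 25 UMIs, was the 1 lower, where 5.67% were. The Col4a5 call was lost with 1 more marker or double the marker UMIs needed for a class. Col4a1 had a ratio of 1.96 (1.73 to 2.21) and Col15a1 one of 0.622 (0.52 to 0.742). Among fibroblasts labelled sham, 0 of 6 collagens passed 2-fold in either direction, where 0.43% of 8608 genes were higher and 0.999% lower. There the Col18a1 ratio was 1.27 (1.24 to 1.3) and that of Col15a1 0.721 (0.703 to 0.739). With equal weight for each cell the Col18a1 log2 ratio labelled sham was 0.03 in place of 0.34.

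The spread of the marker share was wider in the library labelled UUO. Median fibroblast marker UMIs per 10000 were 51.3, 151 and 348 in its tertiles, against 68.5, 112 and 185 in those of the library labelled sham. The lower tertile labelled UUO also held more endothelial and mural marker RNA than the upper tertile, 543 against 261 CPM (10 of 10 markers counted in both) and 511 against 198.5 CPM (8 of 8 in both). For the library labelled sham these were 358 against 274 CPM and 104 against 98.5 CPM. Their part in the Col18a1 and Col4a2 values was not tested. Cells without a class labelled UUO held Col18a1 at 299 CPM, Col4a1 at 291 CPM and Col15a1 at 84.7 CPM, closer to the lower tertile than to the upper in Col18a1.

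**Figure D5:**
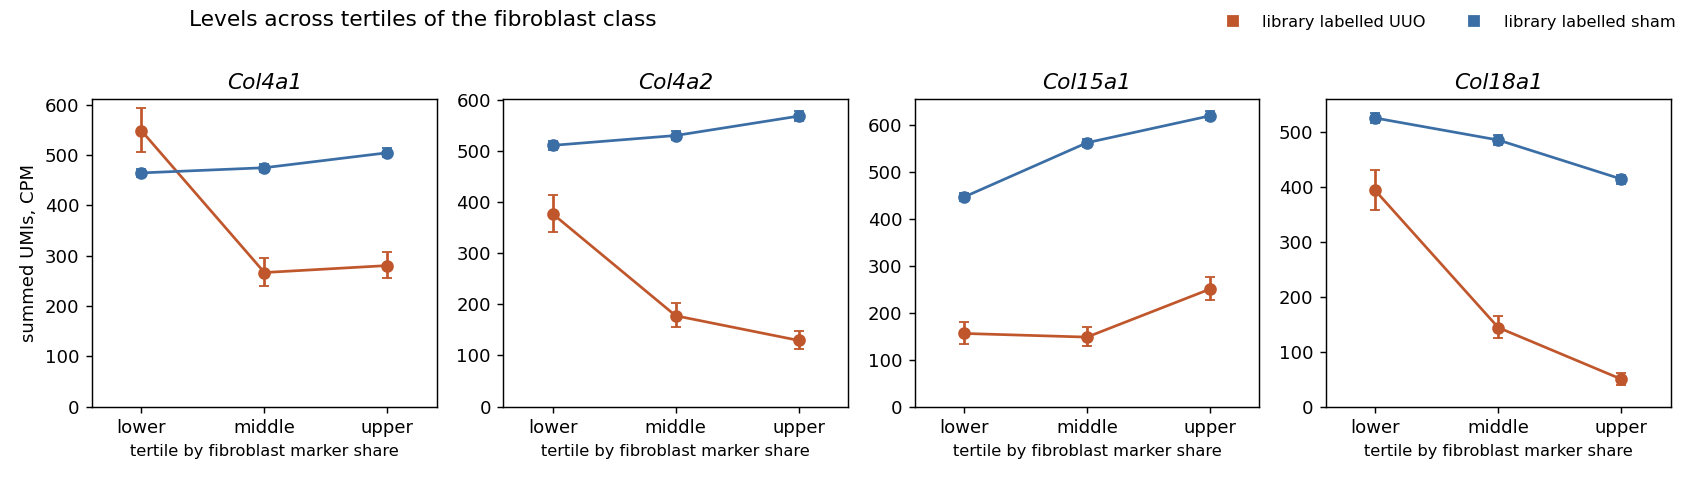
CPM (axes from 0, with a scale of their own) of Col4a1, Col4a2, Col15a1 and Col18a1 in the lower, middle and upper tertile of the fibroblast class by fibroblast marker share, in the library labelled UUO and the library labelled sham; points are summed UMIs and bars are exact Poisson 95% intervals. Labelled UUO, Col18a1 stands at 393 CPM in the lower and 49.8 CPM in the upper tertile, while Col15a1 is highest in the upper tertile of both libraries.

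UMIs of both main collagen IV chains were counted in the same cell in part of each class, and the share was lower at lower depth. Unthinned, 49.5% of fibroblasts labelled UUO and 79.5% of those labelled sham held a UMI of both Col4a1 and Col4a2. At 1000 UMIs these shares were 9.53% (7.34 to 12.1) and 17.1% (16.3 to 17.9). In endothelial cells at 1000 UMIs they were 4.41% (0.919 to 12.4) of 68 cells labelled UUO and 17.3% (13.8 to 21.2) of 423 cells labelled sham. In the same order they were 4% and 13% in mural cells, and 2.9% and 2.36% in tubule cells. Singly, at 1000 UMIs, Col4a1 was counted in 29.1% and Col4a2 in 20.8% of fibroblasts labelled UUO, and in 36.3% and 40.3% labelled sham. The joint share expected from such single shares was not computed, so the joint shares are not read as co-expression.

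Genes whose levels over the 8 class profiles (4 classes in 2 libraries) were most like a member's were listed among 5609 genes with at least 50 CPM in 1 profile. Col4a1 was most like Rab6a (r = 0.98, Pearson, log2 of CPM plus 5) and Sparc (r = 0.974), the latter coding for a collagen-binding matrix protein. Col15a1 was most like Lox (r = 0.988), which codes for the collagen cross-linking lysyl oxidase, and Bmp1 (r = 0.978), which codes for the procollagen C-proteinase. Col18a1 was most like Smim3 (r = 0.985) and H2afy2 (r = 0.973). Between members, Col4a1 and Col4a2 had r = 0.953, Col4a1 and Col15a1 0.778, and Col4a1 and Col4a4 -0.838. The profiles share 2 libraries and differ in depth, so these values describe 8 points and carry no test.

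Laminins, nidogens and heparan sulphate proteoglycans share the membrane with collagen IV. Of these 15 partners 10 were compared in fibroblasts labelled UUO and sham, and 1 was at least 2-fold higher, where 12.3% of all genes compared were, and 0 were lower, where 4.95% were, so neither count stands far from its share over all genes. Their median log2 ratio was 0.32, and that of all genes -0.01. In the tubule class, whose segments differ between the libraries, 6 of 8 partners compared were lower labelled UUO, where 18.5% of genes were. There 0 were higher, where 12.6% were. In the mural class 2 of 7 were lower, where 16.1% of genes were, and 1 was higher, where 12.2% were. In the endothelial class 1 of 10 was lower, where 8.67% were, and 0 were higher, where 8.62% were. The mural and endothelial counts do not stand far from these shares. The higher gene in fibroblasts was the laminin chain Lamc3, at 29.2 CPM labelled UUO and 6.75 CPM labelled sham, a ratio of 4.33 (3.53 to 5.29). Lamb2 and Lamc1 had ratios of 1.81 (1.61 to 2.04) and 1.45 (1.29 to 1.62). The lowest ratios were those of Lamb1 at 1.01 (0.918 to 1.11), Hspg2 (perlecan) at 0.822 (0.73 to 0.923) and Agrn (agrin) at 0.689 (0.523 to 0.891).

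Genes that fold, modify and export collagen were all compared, 14 of 14, in fibroblasts, with 1 higher, where 12.3% of genes were, 1 lower, where 4.95% were, and a median log2 ratio of -0.37 against -0.01 for all genes. Counts of 1 in 14 are near those shares. The lower gene was Pxdn, the peroxidasin that forms sulfilimine cross-links in collagen IV, at 18.5 CPM labelled UUO and 58.1 CPM labelled sham, 3.15-fold lower (2.51 to 4). The prolyl hydroxylase subunit P4hb was 1.87-fold lower (1.7 to 2.06) and P3h1 1.65-fold lower (1.45 to 1.88). Mia2, a cargo receptor of large secreted proteins, was 2.26-fold higher (2.05 to 2.49), Mia3 1.39-fold (1.2 to 1.59) and P4ha1 1.37-fold (1.23 to 1.52). Of the 5 collagen IV receptors 4 were compared and 0 passed 2-fold in either direction, where 12.3% of genes were higher and 4.95% lower, with a median log2 ratio of 0.10. Itga1, the integrin chain that binds collagen IV, stood at 231.5 CPM labelled UUO and 128.5 CPM labelled sham, a ratio of 1.8 (1.69 to 1.93), Ddr2 had a ratio of 1.34 (1.2 to 1.49), Itgb1 one of 0.87 (0.825 to 0.917) and Ddr1 one of 0.659 (0.48 to 0.884).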

How the data were processed

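The authors deposited 1 matrix for each library, with unscaled expected counts of UMIs. The submitters' processing notes name alevin, Salmon 0.13.1 and mm10. UMIs matching more than 1 gene are divided among them by alevin, yet 100% of nonzero member values were whole at a tolerance of 1e-06. Depth was 6023072 UMIs over 1291 barcodes labelled UUO and 85359332 over 10812 labelled sham.

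Cells with at least 500 UMIs, 300 genes and at most 20% mitochondrial UMIs were kept. A class needed a number of distinct markers and of marker UMIs per 10000: endothelial 4 of 10 and 20, mural 3 of 8 and 20, tubule 4 of 25 and 40, fibroblast 4 of 8 and 30, the last without any other class. Cells of 2 or more other classes were left out, and doublets were not called in the main analysis. Cells within 0.8 to 1.25 times the UMI minimum numbered 78 and 236 in the fibroblast class, and 26 and 69 in the tubule class, labelled UUO and sham. These minimums and the 10-count minimum were set after seeing the data, and the members and lists were chosen with earlier results of these data known.

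Counts were summed per class and library, rounded and scaled to CPM. Intervals at 95% are exact Poisson for levels, exact conditional binomial for ratios and Clopper-Pearson for shares, and cover counting error only. With 1 library per label no p-value was made. For the log2 ratios a count of 0 was set at 3 counts, or at the CPM of the other group where that was lower. A gene set at the level of the other group could not pass 2-fold, among the collagens and among all genes alike. All 8 members were named, with the 3 highest and 3 lowest of each pathway list and the 5 genes most like Col4a1, Col15a1 and Col18a1, of which the leading 2 are printed. The ratio code was tested on simulated counts. Software was Python 3.11.15, numpy 2.4.6, scipy 1.17.1 and edgeR 4.0.16 (TMM only).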

Additional observations from a re-analysis of the deposited data

How the results depend on the processing

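Of 96 collagen ratios, 8 genes in 12 comparisons, 33 passed 2-fold, 20 of these under every alternative run for them, and 0 reversed. The 96 include ratios under the minimums for comparison, which could not pass. From 4 to 7 of the 8 collagens were compared each time, so 33 of 96 is not a pass rate. Among all genes compared, the share past 2-fold in either direction ran from 1.43% to 38.8% over the comparisons. There were 19 alternatives, of which 14 were planned and 5 were added after seeing the data. The counts of collagens past 2-fold in the fibroblast comparison of UUO over sham, as labelled, held within 1.5 times. Collagens past 2-fold in the mural comparison of the libraries numbered 4 with TMM scaling, against 2. In the tubule comparison of the libraries they numbered 2 without the mitochondrial filter, 0 with the minimum of marker UMIs lowered 2-fold and 2 with it raised 2-fold, against 1. For endothelial over fibroblast cells labelled sham they numbered 4 with equal weight for each cell, with TMM scaling, with 1 CPM added and with the fibroblast profile subtracted, and 0 with the lowered minimum, against 2. For mural over fibroblast cells labelled UUO they numbered 2 with median of ratios scaling and with the raised minimum, and 0 with the lowered one, against 1. Labelled sham they numbered 2 with 1 fewer marker, equal weight, 1 CPM added, no filter on low genes, no minimum of counts and the fibroblast profile subtracted, and 0 with the lowered minimum, against 1. For tubule over fibroblast cells labelled UUO they numbered 3 with median of ratios scaling and with the lowered minimum, against 5.

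Counts over all genes moved too. Without the filter on low genes, 2176 genes passed in the endothelial comparison of the libraries (1438 with it), 2556 in the mural one (1128), 2791 in mural over fibroblast cells labelled UUO (1211) and 1279 labelled sham (795). Without the minimum of counts, 2556 passed in the mural comparison and 2284 in mural over fibroblast cells labelled UUO, where TMM scaling gave 1843. Labelled sham, equal weight gave 1341 there. Subtracting the fibroblast profile gave 2397 genes for endothelial (1538) and 3258 for mural over fibroblast cells (795) labelled sham. Adding 1 CPM gave 191 genes between the tertiles labelled sham (123). Thinned to 1000 UMIs, 2 collagens, Col4a1 and Col4a2, had shares of endothelial cells with intervals apart between the libraries. Thinned to 500 UMIs 1 had, Col4a2. The share of all genes with intervals so apart was not computed, so these 2 counts are not read as a trait of the collagens. The cause was not tested for any of the changes in counts given here. With 1 more marker the mural class labelled UUO held 18 cells, and 13 without those rich in fibroblast markers, so those comparisons were not run. TMM scaling shifted the fibroblast comparison of the libraries by 0.27 on the log2 scale. No paired analysis was possible because each label has 1 library and the replicate numbers were given in accession order. Counts of 0 to 15 UMIs limit Col4a3 to Col4a6 outside fibroblast and tubule cells, and nothing here measures variation between animals.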
